A study of Rattus norvegicus with 6 samples.

Results

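The subcommissural organ of the adult rat was set against total brain, 1 array against 1 array, over the genes that the array's annotation names. These 2 arrays belong to a series of 6. Of 35129 probes, 16865 had a single gene symbol, and they gave 12167 genes with a value on all 6 arrays, each read from its brightest probe. A gene counted as measured where the higher of its 2 values reached 1.05, the pooled median intensity of all arrays, which left 9114 genes. The organ and the brain both came from normal adult male Sprague-Dawley rats. The organ was cut out by laser microdissection and was a pool of 2, and total brain was a pool that the study used as its reference. For each sample 3 ng of RNA was amplified in 2 rounds and hybridised in a single colour. The labels name no gene by which the organ was recognised, do not say what the pool of 2 was made of, and do not say how many brains were pooled.

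The subcommissural organ is made of columnar, gland-like ependyma that lines the dorsal wall of the third ventricle beneath the posterior commissure, close to the pineal gland. Its cells carry cilia and have an extensive endoplasmic reticulum, and they release large glycoproteins into the cerebrospinal fluid. The best known product, SCO-spondin, assembles into a thread called Reissner's fibre that runs down the ventricles into the spinal canal. A protein made for release is threaded into the endoplasmic reticulum, folded and glycosylated there, carried in coated vesicles to the Golgi, trimmed and decorated with sugars, and then let out of the cell. The gene of SCO-spondin itself, Sspo, was not analysed here.

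With 1 array on each side no difference below has a replicate check, and no test or p-value is given. Fold changes are the level in the organ over the level in total brain, or the reverse where a gene was lower in the organ. Where the smaller level was under the pooled median, a printed fold is against that median and is written as at least so many fold. Counts of genes at least 4-fold higher or lower, here and in each list, use the levels without this raising, down to a floor of 0.142. A gene counted there can thus be under 4-fold against the pooled median. The 2 pineal gland arrays of the series, the only repeat, show how far arrays of 1 tissue can lie apart. Of 8555 genes measured on that pair, 245 (2.86%) differed at least 4-fold, and the standard deviation of their log2 difference was 0.77. Between the organ and total brain the standard deviation was 1.84 over 9114 genes, and 2140 (23.5%) differed at least 4-fold. Of these, 786 (8.62%) were higher in the organ and 1354 (14.9%) were lower. The counts of each list below are to be read beside these shares of all genes, and a list near them was not set apart. The median log2 difference of all measured genes was -0.29, so a list near that value was not set apart from the rest. With every value under the pooled median raised to it, 561 (6.16%) were still at least 4-fold higher and 1034 (11.3%) lower. With a filter at the pooled 75th percentile 476 were higher.

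**Figure D1:**
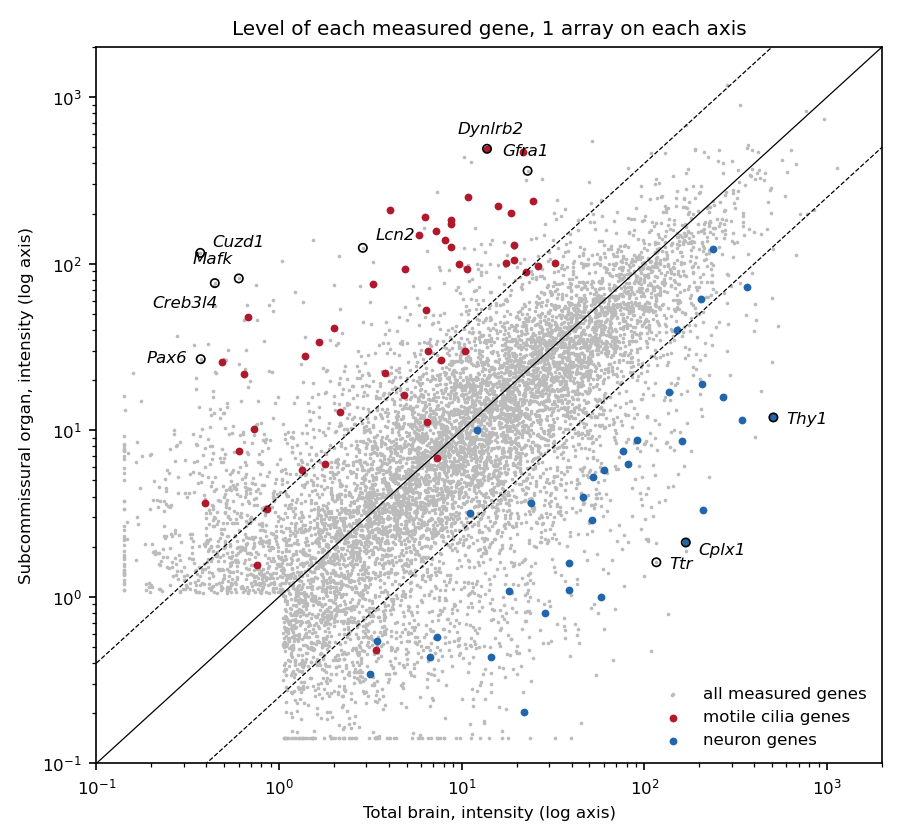
Intensity of each of the 9114 measured genes in the subcommissural organ (vertical log axis) and in total brain (horizontal log axis), with 1 array on each axis, an unbroken line of equal level and dashed lines at 4-fold. Red points are genes of the axonemal dynein and radial spoke lists, all but Odad1 and Tekt5 above the line of equal level, and blue points are neuron genes, all below it. Ringed genes are named.

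Probes of 1 gene were read from the same RNA on the same 2 arrays. Their agreement describes the measurement and does not repeat the difference between tissues. Some probes of Hprt1 gave nearly the same levels, such as 6.81, 6.96 and 6.53 in the organ and 2.67, 2.67 and 2.62 in total brain. Whether such probes are repeated spots of 1 sequence was not tested. The glycolytic gene Pgk1 had 25 measured probes, with log2 differences between -0.48 and 0.22 and a median of -0.09. Pc, which encodes pyruvate carboxylase, had 25 probes between -2.62 and -0.96 with a median of -1.58, so all of them were lower in the organ. All 14 measured probes of Hprt1, of purine salvage, were higher, between 0.91 and 2.54 with a median of 1.10. The hexokinase gene Hk1 had 20 of 21 probes below 0, and Sdha, a subunit of succinate dehydrogenase, had 7 of 12. The range over the probes of a gene was 0.70 for Pgk1 and 2.52 for Hk1 and for Sdha on the log2 scale, beside 2 for the 4-fold step. Among the 2140 genes at 4-fold, 367 had another measured probe, and in 54 it lay on the opposite side of 0. Some genes named below passed 4-fold with their brightest probe while their other measured probe did not. They included Ccdc65, Cldn11, Ero1a, Prom1 and Trpm3, whose other probe was at log2 differences of 1.11, -0.05, -1.12, 1.90 and 1.89. Camk2a, Fgfr2 and Ntng1 were in the same position, and their other probes are given where these genes are named.

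**Figure D2:**
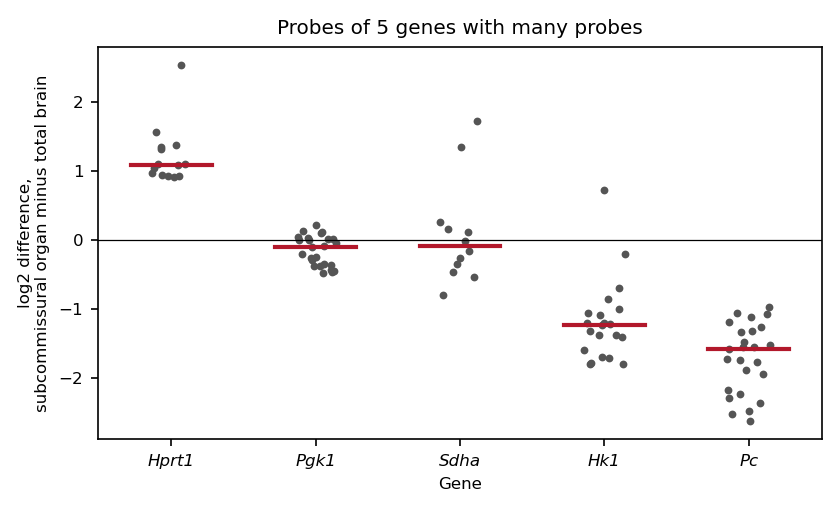
Log2 difference, subcommissural organ minus total brain, of each measured probe of 5 genes that many probes cover, 1 point per probe, with the median as a red bar. Hprt1 lies above 0 and Pc below 0 with all probes, while Sdha has probes on both sides.

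The 4 genes named as markers with the comparison were chosen for their difference between these arrays, so their values are a description. Cuzd1, which encodes a secreted-type protein with CUB and zona pellucida domains, was at 116 in the organ, against 0.37 in total brain, and at 0.251 in the subfornical organ, 0.412 in the ependyma and 0.397 and 0.204 in the pineal gland. Creb3l4, a membrane-bound transcription factor that is cut free in the Golgi, was at 76.5 in the organ and between 0.142 and 0.515 on the other 5 arrays. Both genes were thus above the pooled median on the organ's array and under it on the other 5. Dynlrb2, a light chain of dynein motors, was at 489.9 in the organ, against 13.8 in total brain, and higher still in the ependyma, at 574. Thy1, a surface protein of neurons, was at 11.9 in the organ and 509 in total brain, 42.6-fold lower in the organ.

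Of 37 gene lists, those of motile cilia had the highest medians above total brain. Axonemal dyneins are the motors that bend a cilium. Of 24 genes on the array for dynein arms, their cytoplasmic assembly factors and the tektins, 22 were measured, and 14 were at least 4-fold higher in the organ and 1 was lower. Their median log2 difference was 3.53, and 3.19 with values under the pooled median raised to it, or 2.41 with the mean of all probes of a gene. Summed over the 22 genes, the level was 1822 in the organ and 165 in total brain.

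Dnah1, a heavy chain of the inner dynein arms, was at 92.9 in the organ, against 4.92 in total brain, 18.9-fold higher. Of the outer arm, the intermediate chain gene Dnai2 was 5.78-fold higher and the docking complex gene Odad4 was 20.6-fold higher, whereas Odad1, of the same docking complex, was at 6.81 in the organ and 7.28 in total brain. Ccdc103, which helps to fix the arms to the microtubule, was at 21.9 in the organ and 0.643 in total brain, at least 20.9-fold higher. The factors that build dynein arms in the cytoplasm were high as well. Dnaaf1 was at 173 in the organ and 8.74 in total brain, and Dnaaf3, Dnaaf4 and Zmynd10 were 20.3-fold, 20.5-fold and 14.3-fold higher. Of the tektins, filament proteins inside the doublet microtubules, Tekt1 was at 192 in the organ and 6.33 in total brain, with Tekt2, Tekt3 and Tekt4 20.9-fold, 23-fold and 5.74-fold higher. Tekt5 went the other way, at 0.477 in the organ and 3.39 in total brain. It was the single gene of the list counted as at least 4-fold lower, although against the pooled median its difference was under 4-fold.

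Radial spokes, the central pair and the nexin links pass the bending signal between dynein arms. All 25 measured genes of that list, of 27 on the array, lay above 0, and 21 were at least 4-fold higher, with none at least 4-fold lower. Their median was 3.36, and 3.28 with low values raised. Drc1, a scaffold of the nexin link, was at 209 in the organ, against 4.03 in total brain, 52-fold higher, and its partner Ccdc65 was 6.7-fold higher. The central pair genes Hydin, Spag6l and Spef2 were 14-fold, 10.3-fold and at least 24.3-fold higher. Of the radial spoke heads, Rsph1 was at 200.3 in the organ and 18.6 in total brain, and Rsph9 was 8.79-fold higher. Cfap45 and Pierce1, whose products line the inside of the microtubules, were 21.5-fold and 17.2-fold higher, and Meig1 was at least 45.4-fold higher. At the low end of the list, Nme7 was at 30.0 in the organ and 10.5 in total brain.

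Regulatory factor X proteins switch on ciliary genes through the X-box, whose core reads GTTGCC. It was searched on both strands in the 300 bases from 250 before to 50 after the start of each gene, taken from RefSeq on build GRCr8. Of all 27457 promoters 12.2% held it, and 12.7% of the 7580 measured genes with a promoter. It was found in 5 of 17 dynein list promoters, in 10 of 23 of the radial spoke list, in 11 of 25 of the intraflagellar transport list and in 4 of 7 of the cilia transcription factor list. Of lists that are not of cilia, it was found in 8 of 34 promoters of disulfide formation and chaperones, 3 of 12 of gap junctions and water channels, 3 of 14 of intermediate filaments and 4 of 20 of granules, and in 3 of 26 of neurons and 4 of 50 of oxidative phosphorylation. The share in the dynein list lay not far above the highest of these. A match describes these letters only. The 250 bases before the start of 3 of the high genes are shown because each carries this core, in capitals. It reads GGCAAC in Drc1, where it lies on the opposite strand, and ended 13, 33 and 145 bases before the start in Drc1, Tekt1 and Mlf1. Mlf1 was at 149 in the organ and 5.8 in total brain.
Drc1 (chr6:31779257-31779506, minus strand, GRCr8): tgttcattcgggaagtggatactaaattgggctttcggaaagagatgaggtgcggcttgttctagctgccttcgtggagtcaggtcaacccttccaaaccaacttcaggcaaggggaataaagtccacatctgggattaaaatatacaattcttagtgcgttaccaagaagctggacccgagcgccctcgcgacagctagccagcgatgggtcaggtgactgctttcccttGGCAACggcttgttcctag
Tekt1 (chr10:57479122-57479371, minus strand, GRCr8): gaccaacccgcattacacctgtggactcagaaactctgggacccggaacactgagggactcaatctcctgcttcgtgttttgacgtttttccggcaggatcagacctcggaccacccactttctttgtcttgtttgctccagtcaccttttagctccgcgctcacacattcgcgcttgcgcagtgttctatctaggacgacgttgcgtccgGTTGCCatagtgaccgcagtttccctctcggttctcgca
Mlf1 (chr2:153958341-153958590, plus strand, GRCr8): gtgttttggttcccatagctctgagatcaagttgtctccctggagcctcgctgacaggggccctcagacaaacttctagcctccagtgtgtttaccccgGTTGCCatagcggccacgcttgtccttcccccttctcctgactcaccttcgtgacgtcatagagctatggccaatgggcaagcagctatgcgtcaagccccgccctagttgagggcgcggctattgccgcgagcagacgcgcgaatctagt

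Intraflagellar transport carries cargo along the cilium, and the BBSome is the coat that moves membrane proteins with it. These genes serve immotile primary cilia too, and they differed less from total brain than the motor genes in their median, which was 1.74. Of 30 measured genes, 12 were at least 4-fold higher and none at least 4-fold lower. Ift27, a small GTPase of complex B, was at 34.8 in the organ and 1.91 in total brain, and Ift88, of the same complex, at 61.4 in the organ and 10.2 in total brain. Of complex A, Ift122 was 8.3-fold higher and Ift43 was 6.16-fold higher. The motor of the return route, Dync2h1, was 5.94-fold higher, while the outward motor subunits Kif3a and Kif3b stood at log2 differences of 1.56 and -0.28. Among BBSome genes, Bbs1 was 4.37-fold higher and Bbs4 was at 20.4 in the organ and 8.53 in total brain.

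Of 13 genes on the array for cilia transcription factors and centriole multiplication, 9 were measured, and 4 were at least 4-fold higher with none lower. The 4 that were not measured, Foxj1, Rfx3, Plk4 and Foxn4, were under the pooled median in both the organ and total brain. Rfx2, an activator of ciliary genes, was at 44 in the organ and 6.98 in total brain, and Rfx1 at 22.1 in the organ and 4.12 in total brain. Deup1 and Ccno, which act when a cell makes many centrioles at once, were 10.8-fold and at least 17.3-fold higher. E2f4, which works with them, was at 4.43 in the organ and 14.6 in total brain, and Rfx7 at 11.6 in the organ and 20.0 in total brain, although its 3 other measured probes lay above 0, at log2 differences between 0.40 and 2.32.

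The cilia genes were also high on the ependyma array. Drc1 was at 209 in the organ and 248 in the ependyma, Cfap45 at 469 in the organ and 441 in the ependyma, and Tekt1 at 192 in the organ and 233 in the ependyma. On the pineal gland arrays the same genes were at 1.3 and 0.401 for Drc1, 0.932 and 3.14 for Cfap45 and 0.453 and 0.848 for Tekt1. The subfornical organ lay between, with Drc1 at 41.2.

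Along the secretory route the lists from translocation to the Golgi had medians between -0.18 and 0.67, and the number of genes at 4-fold differed between them. Translocation into the endoplasmic reticulum showed 1 of 21 measured genes at least 4-fold higher and none lower, with a median of 0.03. That gene was Sec61b, a subunit of the channel itself, at 33.8 in the organ and 6.62 in total brain. The catalytic signal peptidase subunit Sec11a was at 42.5 in the organ and 16.5 in total brain, and Tram1, which assists the channel, at 19 in the organ and 7.59 in total brain. Subunits of the signal recognition particle were under total brain or near it, with Srp72 at 28.8 in the organ and 51.8 in total brain.

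The N-glycosylation list had 28 measured genes, a median of 0.37, none at least 4-fold higher and 1 lower. Dad1 and Rpn2, subunits of the oligosaccharyltransferase, stood at log2 differences of 1.60 and 1.32, and Alg6, which adds a glucose to the lipid-linked sugar, at 1.99. The catalytic subunit gene Stt3a gave no single direction, with its brightest probe at 7.44 in the organ and 10.8 in total brain and its 2 other measured probes at log2 differences of 2.70 and 2.85. The 1 gene at least 4-fold lower was Canx, the membrane-bound lectin chaperone, at 0.552 in the organ, 3.59 in the subfornical organ, 4.45 in the ependyma, 1.32 and 0.167 in the pineal gland and 9.52 in total brain. Calr, its soluble relative, was at 13.3 in the organ and 10.4 in total brain.

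Of 42 measured genes for disulfide formation and chaperones, 32 lay above 0, against 3739 of 9114 (41.0%) over all genes, and the median was 0.67. At 4-fold 4 were higher and 3 lower, shares of 9.52% and 7.14%, beside 8.62% and 14.9% of all genes. Creld2, secreted and retained under stress of the endoplasmic reticulum, was at 37.8 in the organ and 3.78 in total brain. Sdf2l1, which forms part of a chaperone complex there, was at 67.4 in the organ and 14.4 in total brain, and Pdia5, a disulfide isomerase, was at least 4.85-fold higher. The main chaperone Hspa5 was at 26 in the organ and 9.98 in total brain, its nucleotide exchange factor Sil1 at 161 in the organ and 53.3 in total brain, and the secreted stress factor Manf at 119.9 in the organ and 38.3 in total brain. The oxidases that feed disulfide formation went the other way. Ero1a was at 4.36 in the organ and 18.9 in total brain, and Ero1b at 0.579 in the organ and 3.19 in total brain. Ero1b differed by less than 4-fold against the pooled median.

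Another list held genes of the unfolded protein response together with secretory transcription factors. Of its 32 measured genes, 4 were at least 4-fold higher and 4 lower, with a median of 0.25. That is 12.5% in each direction, beside 8.62% higher and 14.9% lower of all genes. Besides Creb3l4, the small Maf factor gene Mafk was at 81.6 in the organ and between 0.142 and 0.731 on the other 5 arrays. Creb3l2, a relative of Creb3l4 that drives secretory genes in cartilage, was at 3.23 in the organ and 0.455 in total brain, at least 3.07-fold higher against the pooled median. The other family members did not share this, with Creb3 at 133 in the organ and 141 in total brain, and Creb3l1 at 1.66 in the organ and 2.14 in total brain. Sensors and effectors of that response stood near equal levels, with Atf6 at 33.9 in the organ and 31.1 in total brain, Eif2ak3 at 32 in the organ and 25 in total brain, and Atf4 at 62.1 in the organ and 54.8 in total brain. Chac1, a glutathione-degrading enzyme induced by that response, was at 3.52 in the organ and 58.2 in total brain, and Ddit3, a factor of the same branch, at 26 in the organ and 43.8 in total brain.

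Promoters of these genes were searched for the endoplasmic reticulum stress element, which is CCAAT and CCACG with 9 bases of any kind between them, and for TGACGTGG, a site of the kind that Creb3 family factors bind. Both strands and the same 300 bases were used. Read from the opposite strand, TGACGTGG begins with CCACG, the end of the stress element, so the 2 motifs can overlap. The stress element was found in 4 of 34 promoters of the chaperone list (Creld2, Hspa5, Dnajc3 and Ero1b), in 2 of 27 of the N-glycosylation list (Canx and Calr) and in 1 of 28 of the unfolded protein response list (Derl3), against 0.0765% of all promoters and 0.185% of those of measured genes. Genes that hold it thus included Creld2, higher in the organ, and Canx and Ero1b, lower. TGACGTGG was in 0.637% of all promoters and 0.884% of those of measured genes. In the coat vesicle list 8 of 56 promoters held it (Copa, Copb1, Copb2, Arf4, Gbf1, Kdelr3, Stx5 and Scfd1). Log2 differences were 1.33, 2.29, 0.42, 0.94, 2.27, -0.19 and -0.36 for these genes without Gbf1, which was at 5.19 in the organ and 5.19 in total brain. The 250 bases before the start of 4 genes are shown with the stress element in capitals for Creld2, Hspa5 and Canx and the shorter site, on the opposite strand, for Kdelr3. In Creld2 the stress element too lies on the opposite strand.
Creld2 (chr7:121789134-121789383, plus strand, GRCr8): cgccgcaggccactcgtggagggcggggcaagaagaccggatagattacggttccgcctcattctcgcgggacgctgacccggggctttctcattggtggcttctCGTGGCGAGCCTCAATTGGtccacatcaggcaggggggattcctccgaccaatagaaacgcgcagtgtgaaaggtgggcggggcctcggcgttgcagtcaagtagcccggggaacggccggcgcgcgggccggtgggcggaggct
Hspa5 (chr3:38452766-38453015, plus strand, GRCr8): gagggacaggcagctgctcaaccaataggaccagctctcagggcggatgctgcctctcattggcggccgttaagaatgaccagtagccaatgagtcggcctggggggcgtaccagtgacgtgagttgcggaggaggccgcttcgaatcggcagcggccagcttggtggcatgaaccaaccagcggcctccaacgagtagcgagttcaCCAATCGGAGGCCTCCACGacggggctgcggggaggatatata
Canx (chr10:35157858-35158107, minus strand, GRCr8): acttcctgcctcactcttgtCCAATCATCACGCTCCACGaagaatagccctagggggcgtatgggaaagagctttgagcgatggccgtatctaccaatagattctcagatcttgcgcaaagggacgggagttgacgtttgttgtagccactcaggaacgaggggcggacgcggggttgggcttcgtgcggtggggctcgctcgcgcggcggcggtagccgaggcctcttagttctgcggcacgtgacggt
Kdelr3 (chr7:112959382-112959631, plus strand, GRCr8): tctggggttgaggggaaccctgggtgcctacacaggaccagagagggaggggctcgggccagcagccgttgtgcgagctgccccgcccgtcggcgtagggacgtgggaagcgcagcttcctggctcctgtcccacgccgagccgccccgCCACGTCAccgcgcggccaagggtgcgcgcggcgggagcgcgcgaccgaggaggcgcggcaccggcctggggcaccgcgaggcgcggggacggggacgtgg

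Coat vesicles between the endoplasmic reticulum and the Golgi had 62 measured genes, a median of 0.09, 3 at least 4-fold higher and 2 lower. Sec23b, of the outward coat, was at 49.1 in the organ, against 7.64 in total brain, 6.43-fold higher. Sec24a, its partner in choosing cargo, was at the floor of 0.142 in the organ and at 6.03 in total brain, at least 5.74-fold lower, while Sec24b and Sec24c were at log2 differences of 0.02 and 0.07. Of the returning coat, Copb1 and Copa stood at 2.29 and 1.33, whereas Arcn1, a subunit of the same coat, stood at -0.70. Kdelr3, a receptor that retrieves chaperones, was at 6.42 in the organ and 1.33 in total brain.

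Golgi enzymes lay on both sides. Of 48 measured genes 9 (18.8%) were at least 4-fold higher and 6 (12.5%) lower, with a median of -0.18 that was 0.09 after quantile normalization. Enzymes that start mucin-type sugars on serine and threonine differed among themselves. Galnt3 was at 15.1 in the organ and 0.175 in total brain, at least 14.3-fold higher, and Galnt7 at 3.4 in the organ and 0.531 in total brain, while Galnt1 and Galnt2 were at log2 differences of 0.27 and -0.89. C1galt1, which adds the next sugar, was at 0.453 in the organ and 3.04 in total brain. St6galnac2, which caps such chains with sialic acid, was at 26.3 in the organ and 0.514 in total brain, a difference of at least 25-fold. Fut2, the fucosyltransferase of secretor status in epithelia, was at 6.45 in the organ and 0.649 in total brain. Of the mannosidases that trim N-linked sugars, Man2a1 was 7.48-fold higher and Man2a2 4.96-fold higher, and Man1a1 was at 0.659 in the organ and 3.68 in total brain. Galnt7, C1galt1 and Man1a1 differed by less than 4-fold against the pooled median. Genes lower in the organ included St3gal6 at 0.824 in the organ and 22.9 in total brain, Mgat5b, known for its expression in brain, at 0.833 in the organ and 15.1 in total brain, and the sulfotransferase gene Chst1 at 1.15 in the organ and 11.5 in total brain.

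**Figure D3:**
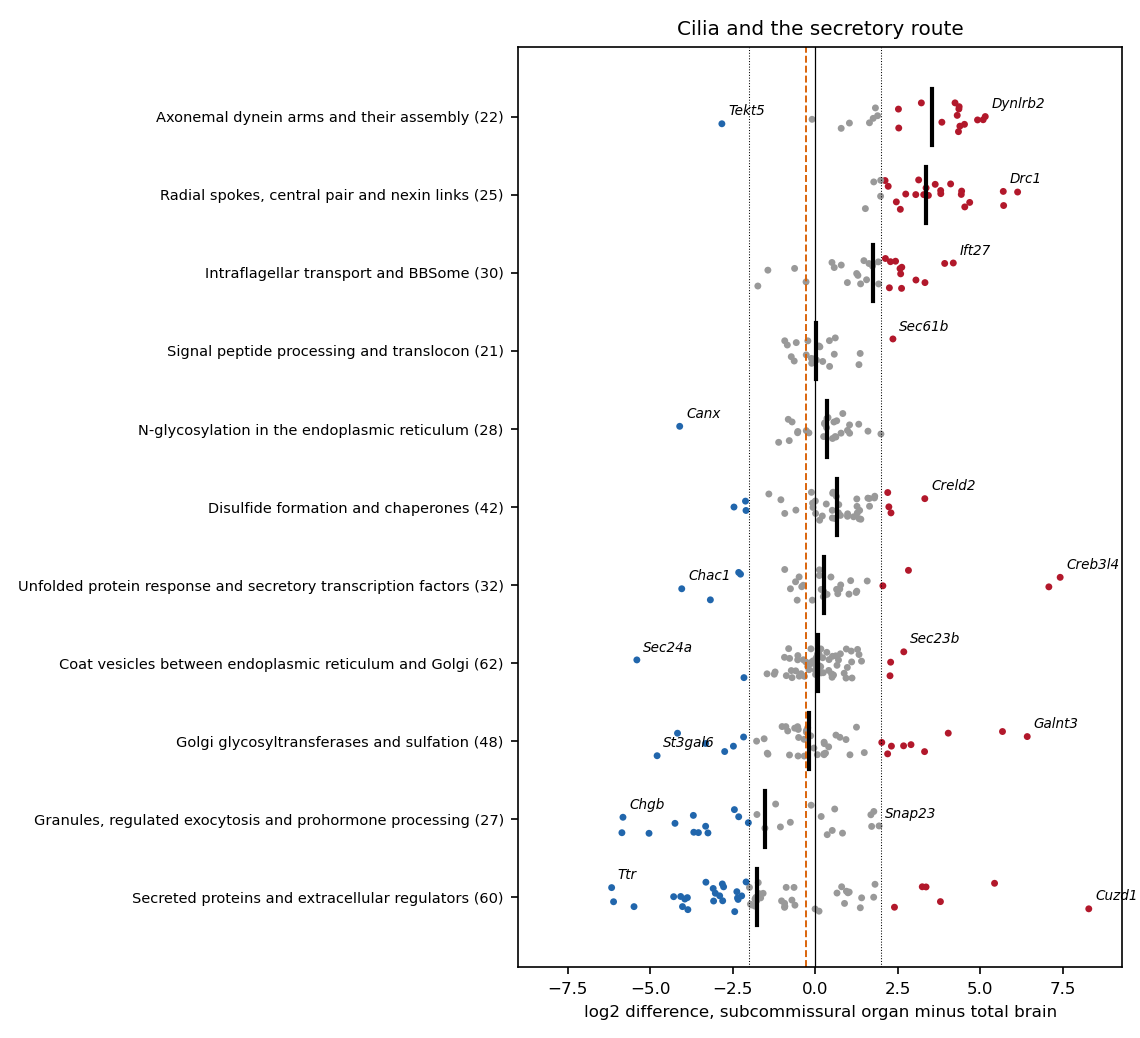
Log2 difference, subcommissural organ minus total brain, of each measured gene in 11 lists ordered along cilia and the secretory route (1 point per gene, number of measured genes in brackets, black bar at the list median, orange dashed line at the median of all genes, dotted lines at 4-fold). Points are red at 4-fold or more higher in the organ and blue at 4-fold or more lower. The medians of the cilia lists lie right of 0, and those of the lists from translocon to Golgi lie near 0. For granules and secreted proteins the median lies to the left, with single genes on both sides.

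Regulated secretion by dense-core granules, which neurons and endocrine cells use, was on the low side. Of 27 measured genes none was at least 4-fold higher and 12 were lower, with a median of -1.53 (-1.20 with low values raised). The granule proteins Chgb, Scg2 and Vgf were at 0.43, 1.09 and 2.35 in the organ, against 24.5, 14.2 and 77.3 in total brain. Rab3a, a GTPase of synaptic vesicles, was 11.6-fold lower, and Pcsk5, a protease that processes precursors, was at least 35-fold lower. Of 34 genes on the array 7 were not measured, Rab3d, Rab27a, Rab27b, Sytl1, Sytl5, Stx3 and Stxbp2. Among the measured members, some that serve constitutive release or granules of other tissues were not low. Snap23 and Vamp8, fusion proteins of non-neuronal secretory cells, were at 46.5 and 72.2 in the organ, against 12.2 and 21.1 in total brain, and Furin, the protease of the constitutive route, was at 8.69 in the organ and 6.08 in total brain.

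Of 85 genes on the array for secreted proteins and extracellular regulators, 60 were measured, 6 were at least 4-fold higher and 23 (38.3%) lower, with a median of -1.75 (-1.34 with low values raised). Lcn2, a siderophore-binding lipocalin, was at 124 in the organ, 32.4 in the subfornical organ, 1.15 in the ependyma, 14.9 and 14.3 in the pineal gland and 2.87 in total brain. Wfdc2, a whey acidic protein of epithelia, was at 49.6 in the organ and between 0.869 and 5.24 on the other 5 arrays. Spint2, a membrane-bound protease inhibitor, was 13.9-fold higher, and Igfbp5, which binds insulin-like growth factors, 5.28-fold higher. Reln, an extracellular protein that guides migrating neurons, stood at 104 in the organ and 29.8 in total brain.

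Low secreted genes covered neuropeptides, vessel products and carriers. Npy and Vip were at 0.681 and 0.255 in the organ, against 11.1 and 3.71 in total brain. Vip differed by less than 4-fold against the pooled median. Ttr, the thyroid hormone carrier of the choroid plexus, was at 1.61 in the organ and 116 in total brain, and at 104 and 152 in the pineal gland. Spon1, which shares thrombospondin repeats with SCO-spondin, was at 0.443 in the organ and 8.69 in total brain, at least 8.27-fold lower. Ptgds, a prostaglandin synthase and carrier of the meninges, was 16.9-fold lower, and Igf1 at least 16.1-fold lower.

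Factors of the dorsal midline, from which the organ forms in the embryo, split. Of 24 genes on the array 15 were measured, with 4 at least 4-fold higher, 4 lower and a median of -0.40, which was 0.29 with the mean of all probes of a gene. Pax6, needed for the organ to form in the mouse, was at 26.7 in the organ, 1.47 in the ependyma, 5.18 and 2.05 in the pineal gland and 0.373 in total brain. Msx1, also needed for it in the mouse, was at 241 in the organ and 33.3 in total brain, and Otx2 at 124 in the organ and 19.4 in total brain. Zic4 was at 111 in the organ and 2.13 in total brain, but its other measured probe lay on the opposite side of 0. The signals of that region were lower, with Bmp7, Bmp4 and Rspo1 at 0.963, 0.814 and 1.33 in the organ, against 7.53, 5.28 and 6.5 in total brain. Lmx1a, a factor of the roof plate, was at 2.21 in the organ and 0.716 in total brain.

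Over 59 measured genes of the Wnt, BMP, FGF, Notch and hedgehog pathways, 10 (16.9%) were at least 4-fold higher and 18 (30.5%) lower, with a median of -0.69. Receptors were among the high ones. Fgfr2 was at 34.1 in the organ, 11.4 in the subfornical organ, 5.53 in the ependyma, 0.768 and 0.415 in the pineal gland and 0.823 in total brain, and Fgfr4 was 10.1-fold higher. The other measured probe of Fgfr2 was at a log2 difference of 0.92, under 4-fold. The Wnt receptors Fzd3 and Fzd6 were at 4.13 and 18.1 in the organ, against 0.507 and 4.29 in total brain, and Fzd9 at 0.149 in the organ and 5.89 in total brain. Fzd3 was under 4-fold against the pooled median. Ligands on the low side included Wnt5b, at 0.211 in the organ and 17.4 in total brain, Tgfb3, at least 10.7-fold lower, and Tgfb2, at least 6.19-fold lower.

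Of 33 measured Sox, Fox and other lineage factors, 4 (12.1%) were at least 4-fold higher and 8 (24.2%) lower, with a median of -0.88. Of 54 on the array 21 were not measured, among them Elf3, Ehf and Grhl2. Ovol2, a repressor that keeps cells epithelial, was at 9.99 in the organ and between 0.142 and 0.739 on the other 5 arrays. Sox2, of neural progenitors and ependyma, was at 9.15 in the organ and 1.16 in total brain. Bcl11a, of cortical neurons, was at 0.472 in the organ, against 108 in total brain, at least 103-fold lower.

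Genes of epithelial adhesion and polarity had a median of 0.63 over 53 measured genes, with 11 (20.8%) at least 4-fold higher and 9 (17.0%) lower. Of 63 on the array 10 were not measured, among them Cdh1, Cdh3, Cldn4, Cldn7 and Cldn8. Epcam, an adhesion protein of simple epithelia, was at 9.43 in the organ and between 0.142 and 0.625 on the other 5 arrays. The tight junction gene Cldn3 was at 3.75 in the organ and 0.234 in total brain. Llgl2, of the basal polarity complex in epithelia, was at 3.37 in the organ and 0.196 in total brain. Against the pooled median both Cldn3 and Llgl2 were under 4-fold. Cdh11, a cadherin, was at 58.9 in the organ, against 3.15 in total brain, 18.7-fold higher, and at 3.15 in the ependyma. Prom1, on apical protrusions, was 10.8-fold higher, and the annexin gene Anxa1 7.27-fold higher. Lower members included cadherins of neurons and vessels, with Cdh10 at 0.563 in the organ and 11.2 in total brain and Cdh13 at 8.34 in the organ and 131 in total brain, and the myelin claudin gene Cldn11, 5.94-fold lower.

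Of 17 measured keratin and other intermediate filament genes, 4 (23.5%) were at least 4-fold higher and 5 (29.4%) lower. The median was -0.71, and 1.01 with a filter at the pooled 75th percentile. Of 25 on the array 8 were not measured, Krt1, Krt5, Krt14, Krt15, Krt19, Krt20, Krt80 and Nefh. Krt8, a keratin of simple epithelia, was at 11.9 in the organ and 1.66 in total brain, Vim at 377 in the organ and 81.5 in total brain, and Nes at 29.1 in the organ and 5.46 in total brain. Bfsp1, known from the lens, was at least 7.82-fold higher. The neurofilament genes Nefl, Nefm and Ina were at 1.61, 0.437 and 5.26 in the organ, against 38.6, 14.5 and 226 in total brain.

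Gap junction and water channel genes were low. None of 13 measured genes was at least 4-fold higher and 6 were lower, with a median of -1.75. Gja1, which couples astrocytes and ependymal cells, was at 16.5 in the organ, against 98.6 in total brain, and at 215 in the ependyma, 173 in the subfornical organ and 88.1 and 39.1 in the pineal gland. The organ's array was the lowest of the 6 for this gene. Gjb6 and Gjb2 were 14.2-fold and 6.86-fold lower, and Aqp4, the water channel of astrocytes and ependyma, was at 42 in the organ and 86.7 in total brain.

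Receptors for transmitters and peptides had 1 of 50 measured genes at least 4-fold higher and 21 (42.0%) lower, and a median of -1.76 (-1.28 with low values raised). The high one was Gfra1, the co-receptor of the growth factor GDNF, at 361 in the organ, 14 in the subfornical organ, 6.92 in the ependyma, 4.23 and 3.37 in the pineal gland and 22.9 in total brain. Its signalling partner Ret was at 2.77 in the organ and 1.72 in total brain, with its 2 other measured probes at log2 differences of -1.26 and -2.08, and its relative Gfra2 at 8.05 in the organ and 40.7 in total brain. The organ of the rat receives serotonin fibres, and its serotonin receptor genes were at low levels on its array. Htr1a, Htr1d, Htr2a, Htr2b, Htr4, Htr5a and Htr7 were not measured. Their brightest probes were under the pooled median in both the organ and total brain. The brightest probe of Htr2c was at 3.26 in the organ and 4.46 in total brain. Its 2 other measured probes differed more, 1 at 2.85 in the organ and 81.1 in total brain, a log2 difference of -4.83, and 1 at a log2 difference of -2.73. Htr6 was at 2.33 in the organ and 1.23 in total brain, and Htr1b was at 1.13 in the organ and 2.49 in total brain. Receptors of fast synapses were lower, Gria2 at 1.1 in the organ and 38.8 in total brain and Gabrb1 at 1.03 in the organ and 39.6 in total brain. Npy1r was at 0.202 in the organ, against 22.5 in total brain, at least 21.4-fold lower.

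For steroid, thyroid and retinoid handling, 2 of 33 measured genes (6.06%) were at least 4-fold higher and 8 (24.2%) lower, with a median of -0.83. Hsd11b2, which inactivates glucocorticoids and so guards the mineralocorticoid receptor, was at 36.6 in the organ and between 0.275 and 0.668 on the other 5 arrays. Nr3c2, that receptor, was at 8.76 in the organ and 29.8 in total brain, and Hsd11b1, which runs the reverse reaction, at 92.1 in the organ and 75.7 in total brain. In the retinoid path, Rdh5, a retinol dehydrogenase, was at 8.54 in the organ and 0.167 in total brain, while the synthesis enzyme gene Aldh1a2 was at least 16.8-fold lower and the degrading enzyme gene Cyp26b1 at least 10.5-fold lower.

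Ion pumps and solute carriers had 4 of 63 measured genes at least 4-fold higher and 20 (31.7%) lower, with a median of -1.27. Atp2c2, a calcium and manganese pump of secretory Golgi, was at 5.53 in the organ and 0.25 in total brain, at least 5.26-fold higher, with 52.9 in the ependyma, and Slc7a5, which imports large neutral amino acids, at 5.35 in the organ and 0.864 in total brain. The neuronal pumps and exchangers Atp2b2, Slc8a1 and Slc30a3 were at 4.54, 0.573 and 0.788 in the organ, against 135, 23.5 and 135 in total brain. Of 47 measured carbonic anhydrase and channel genes, 5 (10.6%) were at least 4-fold higher and 20 (42.6%) lower. Their median was -1.35, and -0.65 with low values raised. Of 67 on the array 20 were not measured, among them Kcnq1, Kcne1, Kcnj1, Ano1 and Scnn1a. Kcnj13 and Kcne2, potassium channel genes of secretory epithelia, were at 28.5 and 29.1 in the organ, against 9.98 and 4.24 in total brain. Kcnj13 was thus under 4-fold. Car7, a carbonic anhydrase of neurons, was at the floor of 0.142 in the organ, against 39.8 in total brain, at least 37.9-fold lower.

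**Figure D4:**
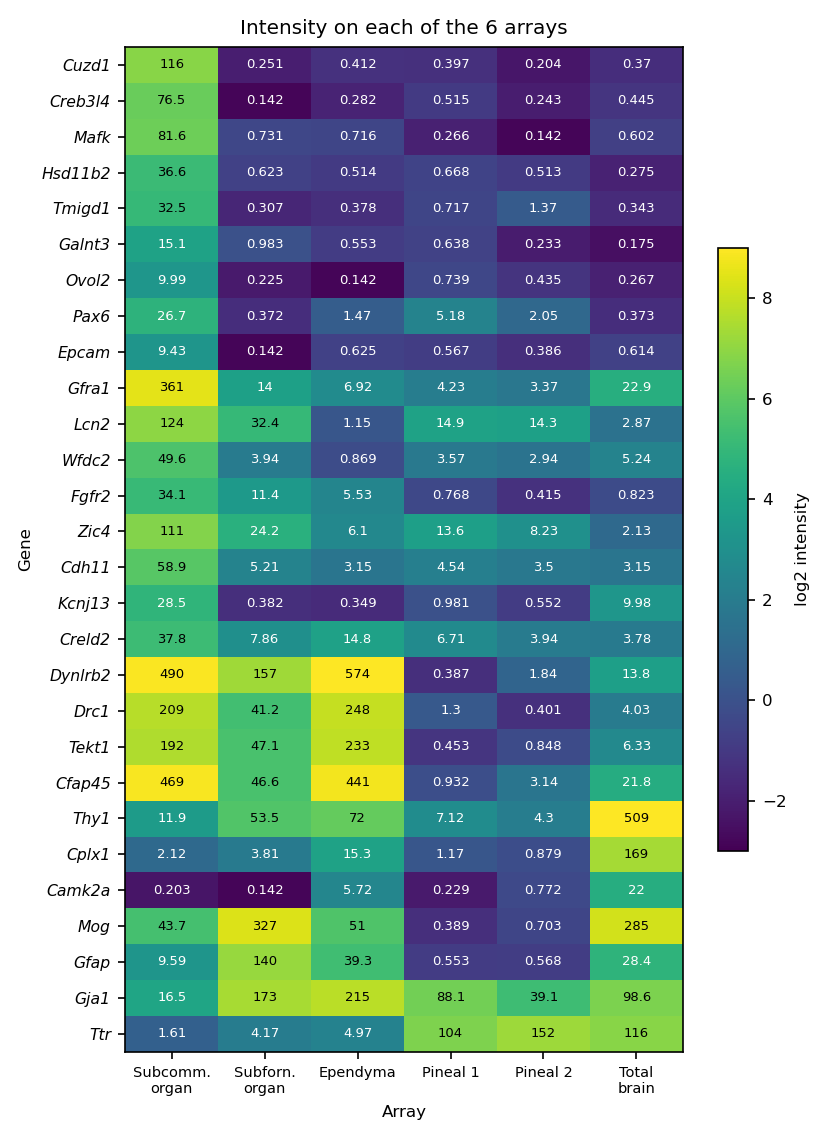
Intensity of 28 named genes (rows) on each of the 6 arrays (columns), coloured on a log2 scale with the value written in each cell. From Cuzd1 to Epcam the first column holds the highest value of each row, the cilia genes Dynlrb2 to Cfap45 are bright in the subcommissural organ and the ependyma, and Thy1 to Ttr are dimmer in the organ than in total brain.

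Markers of neurons, glia and vessel cells, which a dissected piece could hold, had lower summed levels in the organ, unlike those of the pineal gland and the choroid plexus. In whole pieces of tissue, fewer cells of a type and less RNA per cell cannot be told apart. For neurons, 28 of 33 measured genes were at least 4-fold lower and none higher, with a median of -3.68, and their summed level was 450 in the organ and 3705 in total brain. Cplx1, of the synapse, was at 2.12 in the organ and 169 in total brain, and Camk2a, a kinase of excitatory synapses, was at least 20.9-fold lower. Sv2b was nearly level, at 10.1 in the organ and 12.2 in total brain. For oligodendrocytes, 21 of 26 were lower and none higher, with a median of -2.71 and sums of 478 in the organ and 2624 in total brain. Mog was at 43.7 in the organ, 51 in the ependyma and 285 in total brain and was thus not at background on the organ's array. Camk2a had another measured probe, at a log2 difference of -1.29. The part of these cells in the other results was not tested.

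Astrocyte markers had 8 of 17 genes lower, with a median of -1.96 and sums of 438 in the organ and 1953 in total brain. Aldh1l1 was 15.8-fold lower, and Gfap was at 9.59 in the organ and 28.4 in total brain, while Mlc1 was at 11.9 in the organ and 3.68 in total brain. Microglia and macrophage markers had 8 of 16 lower (median -1.97), with sums of 129 in the organ and 542 in total brain, and C1qb was 7.53-fold lower. Endothelial and barrier genes had 12 of 21 lower and 1 higher (median -2.06), with sums of 140 in the organ and 498 in total brain. Vwf was 14.7-fold lower and Abcg2 at least 6.93-fold lower. Of the genes of mural cells and fibroblasts, 6 of 15 were lower (median -1.83), with sums of 121 in the organ and 311 in total brain.

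Neighbouring tissues were read the same way. Of 40 pineal gland genes on the array only 19 were measured, with 1 higher, 4 lower and a median of -1.17. Tph1, which starts serotonin synthesis, was at 1.25 in the organ, 547 and 352 in the pineal gland and 1.91 in total brain, and Sag, an arrestin of pineal and retina, at 4.71 in the organ, 338 and 338 in the pineal gland and 1.61 in total brain. On the organ's array Tph1 stood close to the pooled median of 1.05 and Sag above it. The 1 gene at least 4-fold higher was Otx2, which the choroid plexus list shares, at 124 in the organ, 214 and 140.3 in the pineal gland and 19.4 in total brain. Summed over the 19 genes the level was 169 in the organ and 102 in total brain, higher in the organ, and Otx2 made up most of the organ's sum. Choroid plexus genes divided into 7 higher and 7 lower of 18, with a median of -0.34 that was 2.16 with a filter at the pooled 75th percentile. Their summed level was 924 in the organ and 438 in total brain, again higher in the organ. Those higher were Calml4, Msx1, Krt8, Kcne2, Otx2, Folr1 and Trpm3, and Calml4, a calmodulin-like protein, was at 319 in the organ and 22.4 in total brain. Calml4, Msx1 and Otx2 together made up most of the organ's sum, and Msx1 and Otx2 were also named with the dorsal midline. The plexus's own Ttr and Sostdc1 were at 1.61 and 0.269 in the organ, against 116 and 14.4 in total brain. For the habenula and its surroundings 4 of 9 genes were lower and 1, Irx1, higher, at 4.13 in the organ and 0.661 in total brain. Irx1 was under 4-fold against the pooled median.

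**Figure D5:**
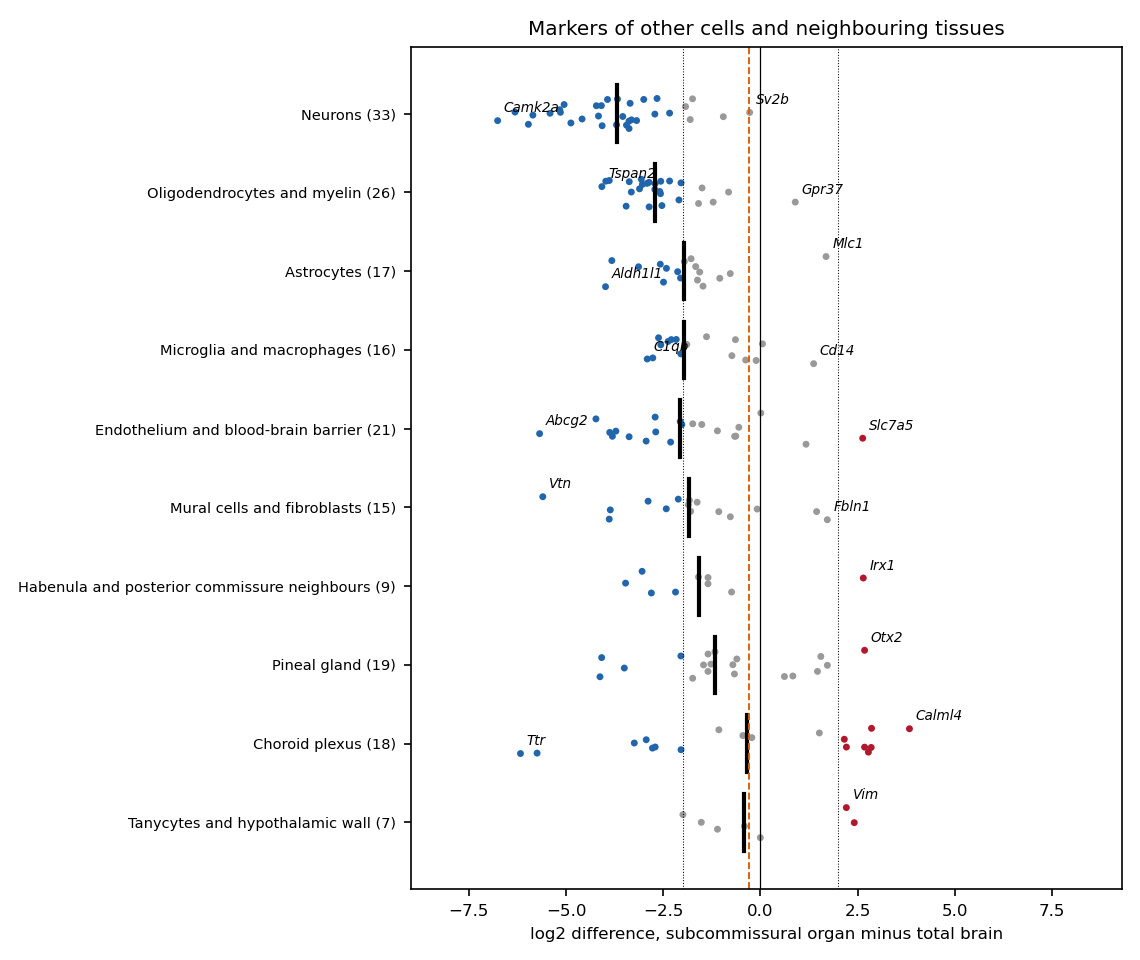
Log2 difference, subcommissural organ minus total brain, of markers of other cell types and neighbouring tissues (1 point per gene, number of measured genes in brackets, black bar at the list median, orange dashed line at the median of all genes, dotted lines at 4-fold). The medians of neuron and oligodendrocyte genes lie furthest left, and choroid plexus genes fall into a group on each side of 0.

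Outside the lists, the 20 genes with the highest and the 20 with the lowest bounded difference were read by name. Akap14, an anchor of protein kinase A in the axoneme, was at 139 in the organ and 1.54 in total brain, and Pierce2, a microtubule inner protein, at 56 in the organ and 0.448 in total brain. Drc12, of the nexin link, was 42.2-fold higher and Wdr38 36.5-fold higher, and both were high in the ependyma too, at 402 and 144.

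Shroom3, which narrows the apex of epithelial cells, was at 67.3 in the organ and 1.23 in total brain. Itgb6, an integrin subunit of epithelia, was at 56.4 in the organ, 37.2 in the ependyma and 0.884 in total brain, and Slc44a4, of the choline transporter-like family, at 46 in the organ, 64.3 in the ependyma and 0.759 in total brain. Il4r, the receptor of interleukin 4, was at 103 in the organ and between 3.26 and 18.5 on the other 5 arrays. Tmigd1, an adhesion protein of kidney and gut epithelia, was at 32.5 in the organ and between 0.307 and 1.37 on the other 5. Bbox1, the last enzyme of carnitine synthesis, was at 60.7 in the organ and 0.925 in total brain, and F10, clotting factor X, at 33.1 in the organ and 0.408 in total brain. The remaining high genes were Enkd1, Atg101, Efcab10, Cdca7, Col8a2, Fam227a, Plekhn1, Cimap1b and Smim22, with folds between 36.2-fold and at least 98.4-fold. Enkd1, Plekhn1 and Atg101 were well above total brain on the other 4 arrays too, at 15.5 to 62.6, 21.8 to 51 and 54.1 to 63.3, against 1.04, 0.64 and 0.744 in total brain, so that total brain was the low array for them.

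Of the 20 low genes, Fibcd1 was at 0.257 in the organ and 141 in total brain, and Cpne6, a calcium-binding protein of hippocampal neurons, at 1.9 in the organ and 169 in total brain. Ntng1, Nptx1 and Lynx1, which act at the surface of neurons and synapses, were 66.2-fold, 54.4-fold and 46-fold lower, and the calcium sensor gene Hpca at least 41.9-fold lower. For Ntng1 this rests on 1 probe, since its other measured probe was at 1.18 in the organ and 1.88 in total brain, a log2 difference of -0.68 and under 4-fold. Pcp4, a calmodulin-binding protein, was at 9.07 in the organ, 377 in the ependyma, 188 in the subfornical organ, 12.4 and 9.69 in the pineal gland and 406 in total brain. The rest, Dmtn, Necab2, Synpo2, Nell2, Nav1, Fbll1, Reep1, Gpr158, Pnlip, Slc7a14, Hecw1, Brinp1 and Ankrd33b, were between at least 40.6-fold and 74.8-fold lower.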

How the data were processed

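Gene expression was measured on 6 one-colour arrays of laser-microdissected rat tissue and total brain. Intensity values on a linear scale, 1 for each probe of an array, were taken as deposited by the authors. How background was corrected, how arrays were scaled and with which software is not given in the sources used here. Array medians lay between 1.04 and 1.07, and 35006 to 35052 of 35129 probes carried a value. At the 75th percentile the intensity was 6.04 for the subcommissural organ and 7.93 for total brain. The number of arrays limits the precision, and no detection call was used.

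A value of -9999 was taken as missing. Lower values were set to a floor of 0.142, the pooled 5th percentile, before log2, with no further scaling (Python 3.11.15, numpy 2.4.6, pandas 2.3.3, figures with matplotlib 3.10.9). The platform annotation gave 16865 probes 1 symbol, 165 several and did not list 18099. Of the named probes, 16836 gene identifiers were found in a current RefSeq table, which updated 1 symbol, and 16796 probes had a value on all arrays. Genes were read from their brightest probe by the mean over the 6 arrays, and differences of at least 4-fold were counted. The calculation was tested on simulated data.

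The 37 gene lists and all members were chosen with earlier results of these data known, so none is independent support. Genes were named from the lists by their largest differences, up to 8 in each direction, with members under 4-fold where they help, and outside the lists as the 20 highest and 20 lowest bounded differences whose other probes lie on the same side. Promoters were RefSeq sequences on build GRCr8, the first listed start of each gene, matched by gene identifier. The 5 alternatives were quantile normalization, no filter, a filter at the pooled 75th percentile (6.04), a floor at the pooled median (1.05) and the mean of all probes of a gene.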

Additional observations from a re-analysis of the deposited data

Results flagged for a closer look

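Probes without a single gene symbol were left out of every comparison above, and many of them carried signal. Of 18167 such probes with a value on all 6 arrays, 9231 were measured, 1313 (14.2%) were at least 4-fold higher in the subcommissural organ and 1457 (15.8%) were lower. The probe with the highest fold among them, numbered 83023, was at 603 in the organ, 0.515 in the subfornical organ, 0.320 in the ependyma, 0.285 and 0.253 in the pineal gland and 0.413 in total brain, at least 574-fold higher in the organ than in total brain. That is a larger bounded fold than that of any named gene above. The next were probe 97047, at 166 in the organ, 112 in the ependyma and 1.13 in total brain, and probe 19011, at 123 in the organ, 45.0 in the ependyma and 0.142 in total brain. The annotation used here gives these probes no gene, and none was assigned.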

How the results depend on the processing

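No paired analysis was possible because the groups compared hold 1 array each and share no replicate numbers beyond it, so no array could be left out either. Counts at 4-fold stayed within 1.5 times of 786 higher and 1354 lower under quantile normalization (903 and 1123), without a filter (929 and 1461), with a floor at the pooled median (561 and 1034) and with the mean of all probes of a gene (710 and 1144). With the filter at the pooled 75th percentile they were 476 and 935, over 6134 in place of 9114 genes. Over all measured genes the median was 0.0084 after quantile normalization. For list medians a change was counted where the move passed 0.77 or the sign turned. The 0.77 is the standard deviation of single-gene differences in the pineal gland pair, not the spread of a list median. Smaller moves of a median that kept its sign were therefore not counted. Quantile normalization turned Golgi enzymes to 0.091. Without a filter Golgi enzymes stood at 0.021, secreted proteins at -0.93, microglia at -0.73, pineal genes at -0.25 and receptors at -0.85. The stricter filter gave 2.42 for cilia transcription factors, -1.30 for the dorsal midline, 1.01 for intermediate filaments, -2.68 for gap junctions and water channels, 2.16 for the choroid plexus and -2.69 for carbonic anhydrases and channels. The mean of all probes gave 2.41 for dynein arms, 0.29 for the dorsal midline and 0.58 for the choroid plexus. The causes were not tested. None of the 37 list medians moved by more than 0.77 or changed sign with the floor at the pooled median. Of 254 named genes that were measured, 224 had a value with the stricter filter and 252 with the mean of all probes, and no named gene at 4-fold changed sign under an alternative that gave it a value. The size moved by more than 0.77 for 54 named genes with the floor at the pooled median and for 52 with the mean of all probes. Levels under the pooled median give only bounds, and 436 of the 786 higher genes had such a level in total brain, as 651 of the 1354 lower ones had in the organ.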

Other observations

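Genes of energy supply, protein synthesis and lipid synthesis were read as 3 further lists. Oxidative phosphorylation had none of 58 measured genes at 4-fold in either direction, with 5 above 0, 53 below 0 and a median of -0.79. Cox6a1, a subunit of cytochrome oxidase, was at 255 in the organ and 590.2 in total brain, and Uqcrc1, of complex III, at 161 in the organ and 468 in total brain. Ribosomal protein genes stood at a median of 0.14 over 35 genes, with 1 at least 4-fold lower, Rpl28, at 0.568 in the organ and 7.02 in total brain. Sterol and fatty acid synthesis had 9 of 38 genes (23.7%) at least 4-fold lower, beside 14.9% of all genes, and none higher, with a median of -1.03. Its desaturase gene Scd was at 0.153 in the organ and 5.39 in total brain, and Dhcr7, the last enzyme of cholesterol synthesis, at 2.98 in the organ and 20.2 in total brain. After quantile normalization, which raised the median of all genes by 0.30, the median of oxidative phosphorylation was -0.50 and that of sterol synthesis -0.77.

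Immediate early and stress genes had 7 of 18 lower and 1 higher, with a median of -1.17. Arc, Egr1 and Fos, switched on by activity in neurons, were at 0.142, 4.18 and 2.15 in the organ, against 16.5, 56.3 and 27 in total brain, whereas Txnip, an inhibitor of thioredoxin, was at 95.8 in the organ and 37.6 in total brain. Of 9 housekeeping genes 1 was at least 4-fold lower, Tfrc, at 0.991 in the organ and 4.42 in total brain, with a median of -0.20 for the list. Gapdh was at 375 in the organ and 1133 in total brain. Tanycyte genes had 2 of 7 higher, Vim and Nes, with a median of -0.41.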
